A study of Mus musculus with 20 samples.

Results

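The genes described here are the potassium channel genes of the mouse hippocampus: 79 of the 94 protein-coding genes in the count table whose symbols start with Kcn. A gene was taken when at least 5 libraries held 10 or more counts. The rule left out 12 genes under that minimum and, by name, the vascular and choroid plexus genes Kcnj8, Kcnj13 and Kcne2. Bulk RNA-seq was run on the left hippocampus of 20 female C57BL/6 mice aged 12 to 13 months, 5 in each of 4 groups, after behavioral testing and perfusion. The mice were miR-34a WT or KO and, within each genotype, either Non-Tg or Tg-SwDI. KO mice lacked miR-34a constitutively in the whole body (miR34a-/-), and WT mice were miR34a+/+. Tg-SwDI mice carry a human APP transgene with the Swedish, Dutch and Iowa mutations under the neuronal Thy1 promoter, so an amyloid model in females of 1 age is what the data can speak of. Each library held 19549622 to 21066868 counts, and the channel genes took 0.494% to 0.579% of them.

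Potassium channels let K+ leave the cell and so pull the membrane toward rest. Voltage-gated alpha subunits and the ether-a-go-go and Kcnq channels repolarize spikes and set firing thresholds in neurons, modifier subunits form channels only together with other alpha subunits, and calcium- or sodium-activated channels follow the ions that enter during a spike. Inward rectifiers and two-pore channels set the resting potential of neurons and glia. Astrocytes use Kir4.1 (Kcnj10) to take up the K+ that firing neurons release, and microglia use K+ efflux in surveillance and inflammasome activation. Auxiliary subunits assemble with the pore-forming proteins and change their gating or traffic. In bulk tissue, fewer cells of a type and less RNA per cell cannot be told apart.

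The 79 genes covered a wide range of levels, which were compared between genes only as RPKM, the CPM divided by the exonic length in kilobases (CPM are counts scaled to the library total with TMM factors). The mean RPKM over the 20 mice ran from 0.068 for Kcnn4 to 129.5 for Kcnab2, with a median of 5.05, and 30 genes reached 10 RPKM while 16 stayed under 1 RPKM. Kcnab2, the cytoplasmic beta subunit that travels with axonal Kv1 channels, led the auxiliary subunits and the whole set. Kcnk1 was the highest of the two-pore channels with 44.4 RPKM and Kcnj10 of the inward rectifiers with 41.6. Kcnh3 led the ether-a-go-go genes with 16.4 RPKM, Kcnf1 the modifier subunits with 14.8 and Kcnn2, a small-conductance calcium-activated channel, its family with 8.81. Kcnrg, which is not a channel but a regulator of Kv1 assembly, stood alone with 0.293 RPKM. The plot of levels per length shows that each family with more than 1 gene spans more than a 10-fold range.

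**Figure D1:**
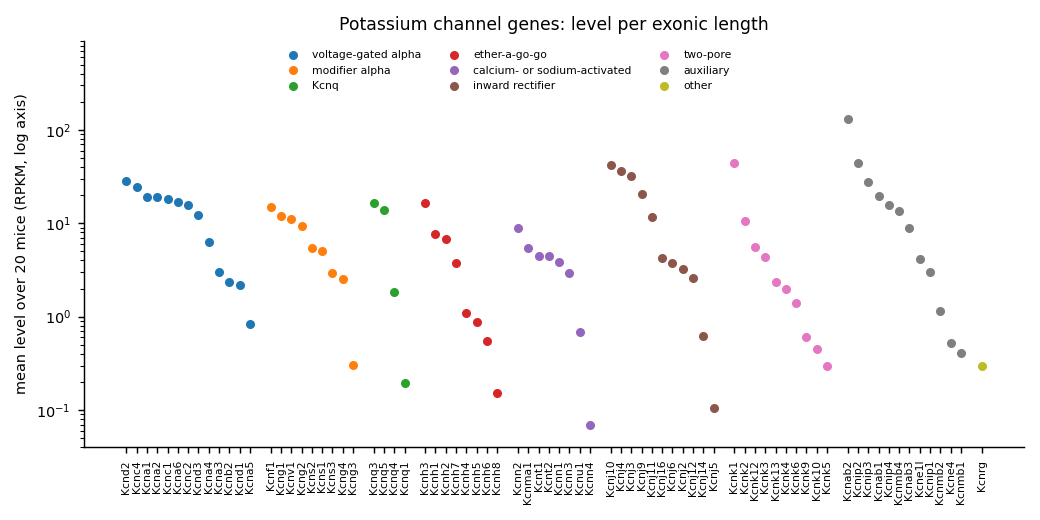
Mean level of 76 of the 79 potassium channel genes over 20 mice, in RPKM on a log axis, with genes grouped by family and sorted by level; each point is 1 gene. Kcnab2 stands highest at 129.5 RPKM and Kcnn4 lowest at 0.068 RPKM.

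Dissection differed between libraries. The summed level of 13 choroid plexus markers was 269.8 to 723.7 CPM in 9 libraries and 3045 to 6862 CPM in the other 11, which had a choroid plexus score above 0. The score is the mean log2 CPM of 15 markers, these 13 with Kcnj13 and Kcne2, centered on all mice. These 11 were 3 of 5 WT Non-Tg, 4 of 5 WT Tg-SwDI, 4 of 5 KO Tg-SwDI and none of the 5 KO Non-Tg libraries. None of the 6 dentate granule cell and 7 CA field markers was at 0 in any library. In WT Non-Tg, KO Non-Tg, WT Tg-SwDI and KO Tg-SwDI mice the dentate sum was 404 to 459, 448 to 493, 421 to 490 and 388 to 533 CPM. The CA field sum was 624 to 665, 628 to 659, 566 to 659 and 547 to 641 CPM. The excluded choroid plexus gene Kcnj13 followed the marker sum, with 1.58, 2.61, 0.579, 1.39 and 0.822 CPM in KO Non-Tg and 9.18, 0.835, 13.8, 18 and 20.5 CPM in KO Tg-SwDI mice, and Kcne2 did so with 0.335 to 2.28 and 0.365 to 12.6 CPM. Kcnj8, the vascular KATP pore, had 2.84 ± 0.473, 2.79 ± 0.416, 2.95 ± 0.275 and 3.25 ± 0.645 CPM (mean ± SD, n = 5) in WT Non-Tg, KO Non-Tg, WT Tg-SwDI and KO Tg-SwDI mice. Values with the choroid plexus score as a covariate, and among the libraries above or under 0 in it, are given for single genes or for the called genes together. The libraries under 0 hold 1 WT Tg-SwDI and 1 KO Tg-SwDI mouse, so the spread of those arms is assumed to be that of the other groups.

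The effect of the transgene in miR-34a WT mice was small in this gene set. Of 78 genes that passed the filter on low counts (Kcnn4 did not), 2 were higher and 1 was lower in WT Tg-SwDI than in WT Non-Tg mice at an FDR of 0.05 by edgeR's quasi-likelihood test. That is 2.56% and 1.28% of them, against 3.94% higher and 0.466% lower among all 16107 genes tested. The median log2 fold change was -0.06 over the 78 genes and 0.0 over all genes, with 54 of 78 below 0. The 2 that rose, Kcnj2 and Kcnk6, are inward-rectifier and two-pore channels that microglia express, and the 1 that fell was Kcnh3. With RLE factors the split was 2 higher and 3 lower, and with library size alone 2 higher and 2 lower.

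Kcnk6 encodes TWIK-2, a two-pore channel known for the K+ efflux that precedes inflammasome assembly in macrophages. Its level was 3.59, 3.22, 3.66, 3.55 and 3.44 CPM in WT Non-Tg and 5.02, 4.79, 3.43, 3.74 and 3.58 CPM in KO Non-Tg mice. It was 5.96, 8.33, 6.14, 6.76 and 6.03 CPM in WT Tg-SwDI and 8.76, 10.5, 9.42, 8.36 and 7.38 CPM in KO Tg-SwDI mice. Every Tg-SwDI mouse lay above every Non-Tg mouse, whatever the miR-34a genotype. Kcnk6 rose 1.9-fold in WT (log2 fold change 0.93 ± 0.13 SE, adjusted p = 8.8e-06, edgeR) and 2.16-fold in KO mice (1.11 ± 0.12, adjusted p = 1.26e-07). With the choroid plexus covariate the values were 0.94 and 1.14, both called. Among the libraries above 0 in the score the WT value was 0.93 (adjusted p = 0.000791, edgeR), and KO Non-Tg has no such library. Among those under 0, where each Tg-SwDI group is 1 mouse, the values were 0.83 in WT and 1.35 in KO mice. Between the Tg-SwDI groups, the KO mice were at 8.88 ± 1.16 and the WT mice at 6.64 ± 0.993 CPM (mean ± SD, n = 5). That difference of 0.42 on the log2 scale missed the threshold (adjusted p = 0.0577 in edgeR), and the mice of the 2 groups overlapped.

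Kcnj2 encodes Kir2.1, the classical strong inward rectifier of neurons, endothelium and microglia. It was 9.08, 10.8, 10.1, 12.9 and 14.5 CPM in WT Non-Tg and 19.5, 21, 28.9, 31.1 and 23.3 CPM in WT Tg-SwDI mice. It was 10.5, 8.06, 15.7, 9.74 and 11.1 CPM in KO Non-Tg and 27.4, 21.9, 20.3, 18.4 and 24.9 CPM in KO Tg-SwDI mice. Again no Tg-SwDI mouse was as low as a Non-Tg mouse. The rise was 2.16-fold in WT (log2 1.11 ± 0.17 SE, adjusted p = 0.000238, edgeR) and 2.05-fold in KO mice (1.03 ± 0.17, adjusted p = 0.000254). The covariate left the log2 fold changes at 1.11 and 1.04, both called. Among the libraries above 0 in the score the WT value was 1.17 (adjusted p = 0.00928, edgeR). Among those under 0, where each Tg-SwDI group is 1 mouse, the values were 0.97 in WT and 0.99 in KO mice. KO and WT Tg-SwDI mice differed by -0.13 ± 0.17 SE on the log2 scale, with no call (adjusted p = 0.708, edgeR).

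None of the other 3 listed channels of microglia was called. Kcnk13 encodes THIK-1, a two-pore channel that sets the resting potential of microglia. Its mean was 7.34 ± 0.422, 6.81 ± 0.946, 7.81 ± 0.587 and 7.28 ± 0.884 CPM (mean ± SD, n = 5) in WT Non-Tg, KO Non-Tg, WT Tg-SwDI and KO Tg-SwDI mice, with no call (adjusted p = 0.755 for the transgene in WT and 0.537 in KO mice, edgeR). Kcna3, the Kv1.3 channel of lymphocytes and activated microglia, was at 5.35 ± 1.42, 6.77 ± 0.731, 5.52 ± 0.623 and 5.48 ± 0.799 CPM in the same order, and the transgene effect did not pass in WT (adjusted p = 0.932) or KO mice (adjusted p = 0.134, log2 -0.31). With the trend on GC content and length removed Kcna3 was called lower in KO mice (log2 -0.47, adjusted p = 0.0191, edgeR). Kcnn4, the calcium-activated KCa3.1 channel of blood and microglial cells, was too low for the filter. Its raw counts were 5, 2, 10, 2 and 5 in WT Non-Tg, 3, 6, 4, 2 and 7 in KO Non-Tg, 9, 12, 7, 15 and 9 in WT Tg-SwDI and 10, 8, 15, 7 and 6 in KO Tg-SwDI mice. Kcnn4 reached 10 counts in only 5 libraries, the fewest the member rule allows, and most of these were of Tg-SwDI mice. It is thus in the set through the Tg-SwDI groups, and a transgene fold change from the same counts is not a test. Fitted without the filter, the log2 fold change was 1.08 ± 0.39 in WT and 1.12 ± 0.41 in KO mice (adjusted p = 0.204 and 0.0728, edgeR).

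Markers of microglia moved with the 2 channels that rose. All 13 homeostatic microglial markers were called higher in Tg-SwDI mice in both genotypes. Their summed level was 445.4 to 560.4 CPM in WT Non-Tg, 449.5 to 480.8 CPM in KO Non-Tg, 847.9 to 1011 CPM in WT Tg-SwDI and 1046 to 1362 CPM in KO Tg-SwDI mice, with no marker at 0. Their median log2 fold change for the transgene was 0.79 in WT and 1.27 in KO mice. All 10 markers of activated microglia were also higher in both genotypes, and their sum ran from 160.4 to 199.9 CPM in the Non-Tg mice and from 594.4 to 1030 CPM in the Tg-SwDI mice. The part of cell number in the channel results was not tested.

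**Figure D2:**
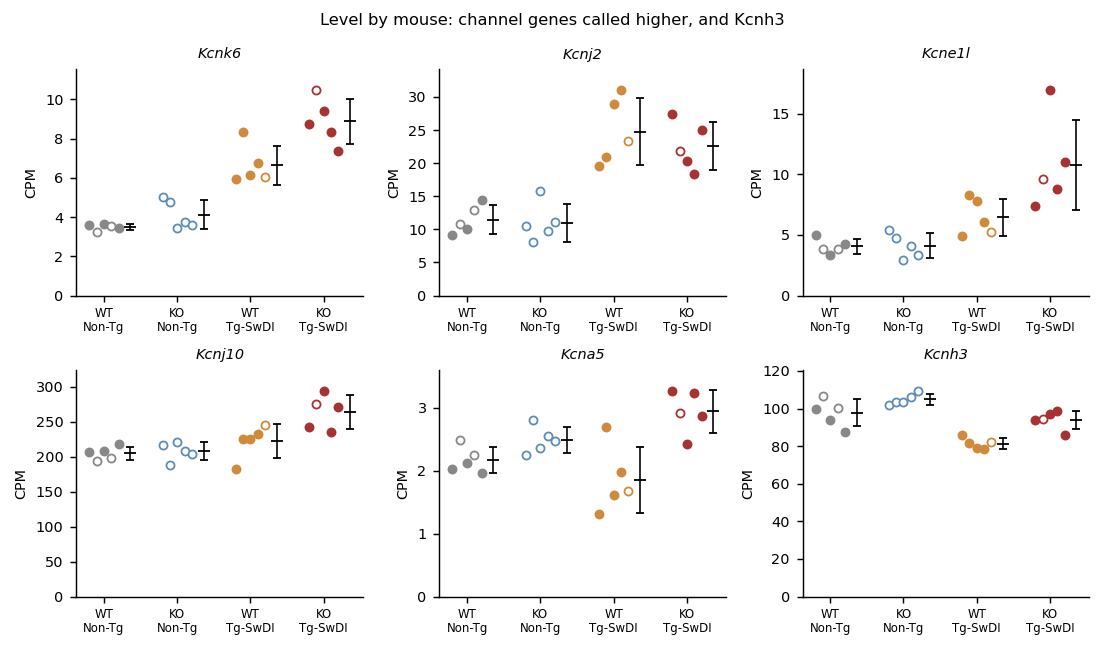
Level of 6 potassium channel genes in each mouse, in CPM from 0, by group (n = 5); filled points are libraries with a choroid plexus score above 0, open points the others, and the bar beside each group is the mean ± SD. Kcnk6 and Kcnj2 are higher in all Tg-SwDI than in all Non-Tg mice, and Kcne1l reaches 17.0 CPM in 1 KO Tg-SwDI mouse.

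Kcnh3 was the 1 channel that fell with the transgene in both genotypes. It encodes Kv12.2, an ether-a-go-go family channel of forebrain principal neurons that acts below spike threshold. The level was 99.96, 107, 93.9, 100.2 and 87.7 CPM in WT Non-Tg and 86, 81.5, 79, 78.6 and 82 CPM in WT Tg-SwDI mice, without overlap. It was 102, 104, 104, 106 and 109 CPM in KO Non-Tg and 93.9, 94.6, 97, 98.5 and 85.8 CPM in KO Tg-SwDI mice, again without overlap. The log2 fold change was -0.26 ± 0.050 SE in WT (adjusted p = 0.000923, edgeR) and -0.16 ± 0.050 in KO mice (adjusted p = 0.0254). In the WT comparison the value was -0.24 with the choroid plexus score as a covariate (adjusted p = 0.00202), -0.34 among libraries under 0 in that score, with 1 WT Tg-SwDI mouse (0.00966), and -0.21 among those above 0 (0.223). In the KO comparison the covariate took it to -0.11 (adjusted p = 0.319), and the call was also lost without KO Non-Tg replicate 7 or 8 or KO Tg-SwDI replicate 8, where the adjusted p reached 0.0702.

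In miR-34a KO mice the transgene comparison called more of these genes: 5 were higher and 21 were lower in KO Tg-SwDI than in KO Non-Tg mice. The lower ones made up 26.9% of the 78 tested, against 8.31% among all genes tested, and the higher ones 6.41%, against 12.5%. The median log2 fold change was -0.11 over the 78 genes and -0.0048 over all genes. The 21 were drawn from 8 families, with 4 of 15 voltage-gated alpha subunits, 3 of 9 modifier subunits, 2 of 5 Kcnq, 3 of 8 ether-a-go-go, 3 of 7 calcium- or sodium-activated, 2 of 11 inward-rectifier, 2 of 10 two-pore and 2 of 12 auxiliary genes. The KO groups also differed in choroid plexus: 13 of 15 of its markers were called higher in KO Tg-SwDI mice, Kcnj13 and Kcne2 among them (median log2 fold change 3.15), and none in the WT comparison. With the choroid plexus score as a covariate 5 genes stayed higher and 4 lower, against 6.61% and 0.975% of all genes. Channel genes took 0.494% to 0.534% of all counts in KO Tg-SwDI and 0.550% to 0.579% in KO Non-Tg libraries, without overlap. In WT mice they took 0.519% to 0.562% in Tg-SwDI and 0.536% to 0.571% in Non-Tg libraries, which overlapped. Within WT Non-Tg, WT Tg-SwDI and KO Tg-SwDI mice, the libraries under 0 in choroid plexus score had the highest shares. The part of dissection in these shares was not tested.

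**Figure D3:**
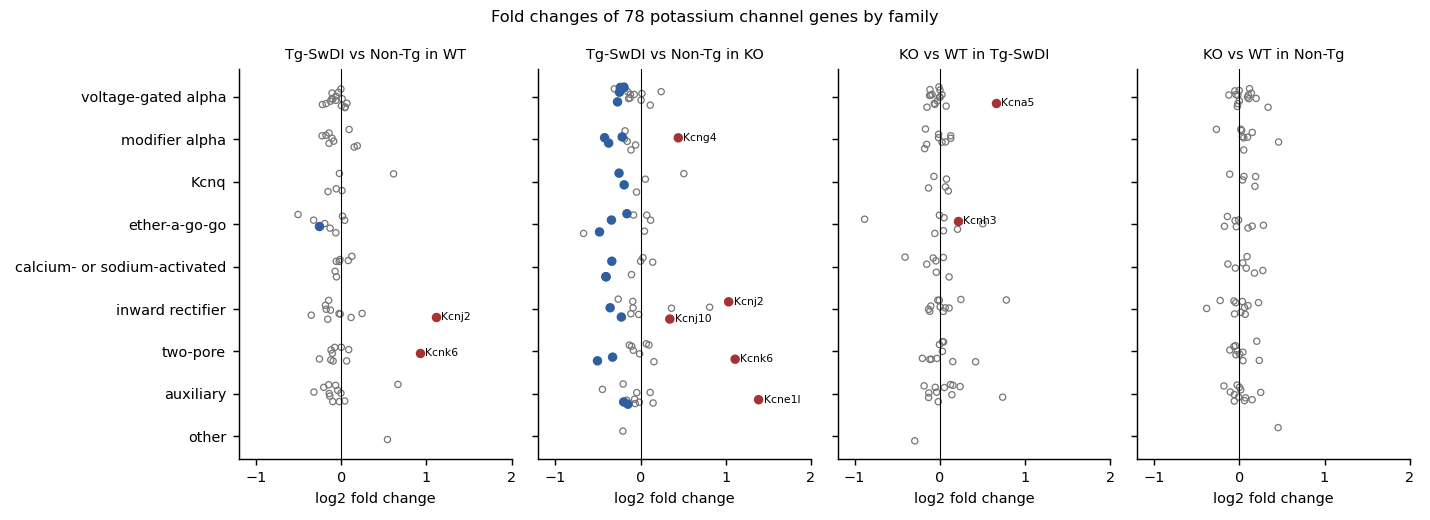
Log2 fold changes of 78 potassium channel genes in 4 comparisons, by family; each point is 1 gene, filled red where called higher and filled blue where called lower at an FDR of 0.05 (edgeR), open otherwise, and the vertical spread within a family is only for display. Lower calls fill the second panel, the transgene effect in KO mice, with 21 genes, while the fourth panel holds no call.

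The genes that rose in KO Tg-SwDI mice were Kcne1l, Kcnk6, Kcnj2, Kcng4 and Kcnj10. Kcne1l (also named Kcne5) encodes a small single-span beta subunit that inhibits Kcnq channels. It was 5.41, 4.74, 2.90, 4.13 and 3.39 CPM in KO Non-Tg and 7.38, 9.60, 17, 8.77 and 11 CPM in KO Tg-SwDI mice. In WT it was 5.01, 3.82, 3.38, 3.85 and 4.25 CPM in Non-Tg and 4.88, 8.33, 7.81, 6.04 and 5.21 CPM in Tg-SwDI mice. The KO groups did not overlap, and KO Tg-SwDI replicate 3, at 17.0 CPM, was the highest of the 20 mice. Kcne1l rose 2.61-fold in KO mice (log2 1.38 ± 0.21 SE, adjusted p = 5.54e-05, edgeR), and the covariate left it at 1.24 (adjusted p = 0.00235). In WT mice the log2 fold change was 0.67 (adjusted p = 0.0988), and the interaction of 0.72 did not pass (adjusted p = 0.227), so the 2 effects were not shown to differ.

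Kcnj10 encodes Kir4.1, the inward rectifier through which astrocytes buffer extracellular K+, and Kcnj16 its partner subunit Kir5.1. Kcnj10 was 218, 189, 222, 208 and 204 CPM in KO Non-Tg and 243, 275, 294, 236 and 272 CPM in KO Tg-SwDI mice. It was 206, 195, 208, 199 and 219 CPM in WT Non-Tg and 182, 225, 226, 233 and 246 CPM in WT Tg-SwDI mice, which overlapped because 1 Tg-SwDI mouse had the lowest level of the 20. The rise in KO mice was 1.27-fold (log2 0.34 ± 0.068 SE, adjusted p = 0.000656, edgeR), and it was 0.37 with the choroid plexus covariate (adjusted p = 0.0033). In WT mice the value was 0.12 (adjusted p = 0.455, edgeR). It was 0.32 among the libraries under 0 in choroid plexus score, where the 1 WT Tg-SwDI library, at 246 CPM, was the highest of its group. Among the libraries above 0, WT Tg-SwDI mice were at 182, 225, 226 and 233 CPM. The WT Non-Tg mice there were at 206, 208 and 219 CPM, so these groups overlapped. Kcnj16 was not called for the transgene in either genotype. It was at 17.7 ± 3.21 and 16.6 ± 1.79 CPM (mean ± SD, n = 5) in KO Non-Tg and KO Tg-SwDI mice (adjusted p = 0.56, edgeR). In WT Non-Tg and WT Tg-SwDI mice it was at 16.5 ± 0.336 and 16.2 ± 0.594 CPM (adjusted p = 0.942, edgeR). Among 10 astrocyte markers, 4 were called higher with the transgene in each genotype (Aqp4, Gfap, Slc1a3 in both, Slc1a2 in WT and Sox9 in KO), and their summed level was 4492 to 4809 CPM in KO Non-Tg and 5761 to 7258 CPM in KO Tg-SwDI mice. The part of astrocyte number in the Kcnj10 result was not tested.

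Kcng4 encodes a modifier subunit that joins Kv2 channels and shifts their inactivation. It was 9.62, 7.82, 8.35, 5.90 and 7.50 CPM in KO Non-Tg and 10.9, 11.5, 11.3, 9.13 and 10.5 CPM in KO Tg-SwDI mice, overlapping in 1 mouse of each group. The log2 fold change was 0.44 ± 0.11 SE (adjusted p = 0.00414, edgeR) and 0.51 with the covariate (adjusted p = 0.0082), and 0.55 among the libraries under 0 in choroid plexus score (adjusted p = 0.0949). In WT mice Kcng4 was at 9.44 ± 0.824 in Non-Tg and 10.8 ± 1.16 CPM in Tg-SwDI mice (mean ± SD, n = 5), with no call (adjusted p = 0.417).

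Of the 15 voltage-gated alpha subunits 4 fell in KO Tg-SwDI mice. Kcnd2 (Kv4.2), the dendritic A-type channel of pyramidal cells, was 159, 149, 160.3, 159 and 161 CPM in KO Non-Tg and 126, 145, 124, 133 and 141 CPM in KO Tg-SwDI mice, with a log2 fold change of -0.24 (adjusted p = 0.00177). Kcna2 (Kv1.2), an axonal channel, was 255, 227, 267, 229.7 and 255 CPM in KO Non-Tg and 212, 206, 191, 212 and 218 CPM in KO Tg-SwDI mice (log2 -0.25, adjusted p = 0.00511). Kcnd2 and Kcna2 each separated the 2 groups fully, but with the choroid plexus covariate Kcnd2 was at -0.16 (adjusted p = 0.0869) and Kcna2 at -0.16 (adjusted p = 0.182), neither called. Kcnc2 (Kv3.2), a fast channel of interneurons and other rapidly firing cells, had a log2 fold change of -0.19 (adjusted p = 0.00969), also without overlap. Of the other 11 voltage-gated alpha subunits none was called.

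Kcnq3, a subunit of the channels that carry the M current and damp repetitive firing, was 264, 252, 285, 264 and 280.3 CPM in KO Non-Tg and 206, 259, 205, 223 and 236 CPM in KO Tg-SwDI mice. KO Tg-SwDI replicate 2, the 1 library of the group with a choroid plexus score under 0, was the highest of its group and reached into the Non-Tg range. The log2 fold change was -0.25 ± 0.067 SE (adjusted p = 0.00899, edgeR), and with the choroid plexus covariate Kcnq3 was not called.

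Of the modifier subunits, which are silent alone and assemble with Kv2 channels, Kcnf1 fell by 25.3%, Kcns3 fell by 22.8% and Kcns2 fell by 13.8% (adjusted p = 0.0112, 0.0129 and 0.0375, edgeR). Kcnf1 was 81.4, 75.7, 75.6, 79.5 and 86.4 CPM in KO Non-Tg and 55, 51.7, 53.7, 81 and 56.5 CPM in KO Tg-SwDI mice, so that 4 of 5 Tg-SwDI mice lay under all Non-Tg mice and replicate 5 within them. Besides Kcnh3, the ether-a-go-go gene Kcnh7 (erg3) fell by 21.1% and Kcnh5 (eag2) fell by 28.4% (adjusted p = 0.00089 and 0.0397). Kcnh7 was 67.2, 58.1, 66.9, 66.6 and 65 CPM in KO Non-Tg and 53.2, 46.7, 47.9, 55.3 and 52.4 CPM in KO Tg-SwDI mice, without overlap. Among channels gated by intracellular ions, Kcnt2 (the sodium-activated Slick) fell by 24.4%, Kcnma1 (the large-conductance BK channel) fell by 20.8% and Kcnu1 (the alkali-gated Slo3) fell by 24.5% (adjusted p = 0.00704, 0.0474 and 0.0424).

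The inward rectifiers that fell, Kcnj9 and Kcnj3, are the GIRK3 and GIRK1 subunits through which GABA-B and other G protein-coupled receptors inhibit neurons. Kcnj9 was 104, 92.9, 96.3, 95 and 99.1 CPM in KO Non-Tg and 89.7, 67.9, 70.9, 82 and 69.7 CPM in KO Tg-SwDI mice, without overlap (log2 -0.36 ± 0.068 SE, adjusted p = 0.000424, edgeR). Kcnj3 fell by 14.4% (adjusted p = 0.0118), but 31.1% of its exonic bases overlap Gm26794 on the opposite strand, so its counts are uncertain. Of the two-pore channels, Kcnk9 (TASK-3, an acid-sensitive leak channel) had the largest change of the 21 and fell by 29.5%, from 9.18, 8.49, 9.02, 7.68 and 9.87 CPM in KO Non-Tg to 5.49, 7.88, 5.17, 6.56 and 6.11 CPM in KO Tg-SwDI mice, with 1 Tg-SwDI mouse inside the Non-Tg range (adjusted p = 0.00346). Kcnk12 (THIK-2) fell by 20.3%, without overlap (adjusted p = 0.00279). Among auxiliary subunits, Kcnab1, which confers inactivation on Kv1 channels, fell by 12.8% and Kcnip2, a Kv4 partner, fell by 9.74% (adjusted p = 0.0149 and 0.0456).

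**Figure D4:**
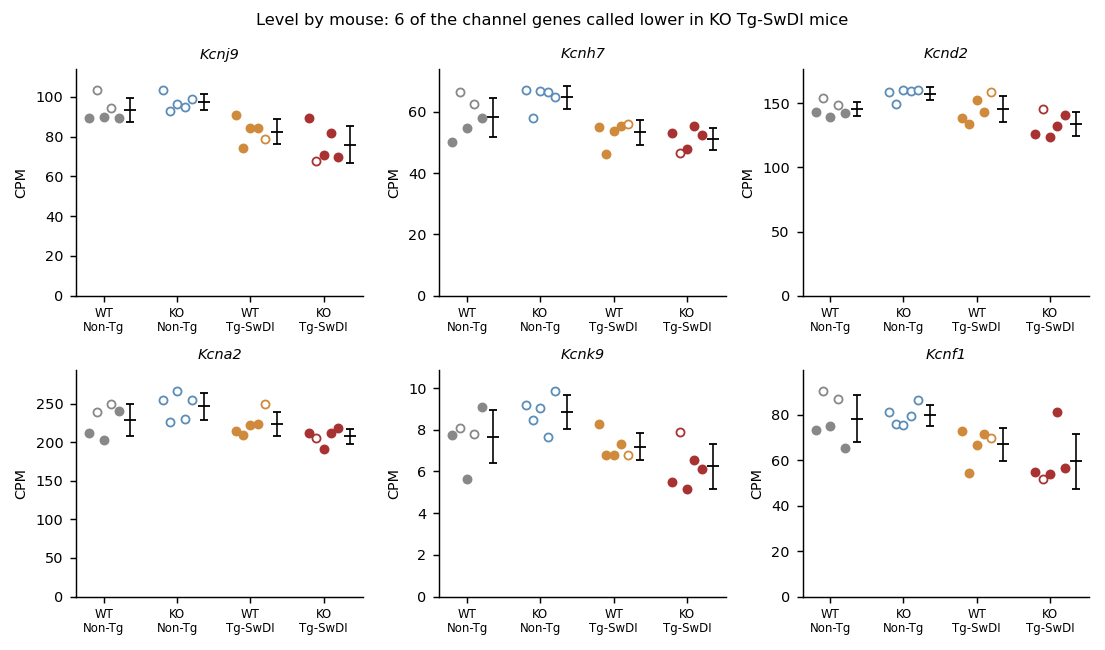
Level of 6 channel genes called lower in KO Tg-SwDI mice in each mouse, in CPM from 0, by group (n = 5); filled points are libraries with a choroid plexus score above 0, open points the others, and bars are mean ± SD. In Kcnj9, Kcnh7, Kcnd2 and Kcna2 every KO Tg-SwDI mouse lies under every KO Non-Tg mouse, and Kcnk9 and Kcnf1 each have 1 KO Tg-SwDI mouse within the KO Non-Tg range.

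Choroid plexus content differed between the KO groups. The 21 genes were picked by their calls in the KO comparison, so refits of the same libraries do not test their direction independently. With the choroid plexus score as a covariate all 21 stayed below 0. Their median went from -0.27 to -0.20, the median SE from 0.068 to 0.080, and 4 remained called, Kcnh7, Kcnj9 and Kcnk12 among them. Among the 9 libraries under 0 in the score, KO Tg-SwDI mice are represented by replicate 2 alone. Its spread is assumed to be that of the other groups. In that fit 20 of the 21 were below 0 (Kcns2 was at 0.019), with a median of -0.25, and Kcnk9 went to -0.17. With each of the 20 mice left out in turn, 20 of the 26 calls held every time. Beside Kcnh3, the calls of Kcnh5, Kcns2, Kcnu1, Kcnip2 and Kcnma1 were lost in 6, 7, 9, 14 and 15 of the 20 fits, with adjusted p up to 0.133, 0.104, 0.164, 0.161 and 0.127. Of 9 pan-neuronal markers, Nefm and Syt1 were called lower in KO Tg-SwDI mice, of 7 CA field markers Fibcd1 and Pou3f1, and of 6 dentate granule cell markers none. Of 8 interneuron markers Gad1 was called lower. Of 6 excitatory neuron markers none was called, and their median log2 fold change was 0.02. The summed pan-neuronal level was 6566 to 7132 CPM in KO Non-Tg and 6012 to 6883 CPM in KO Tg-SwDI mice. The excitatory sum was 6341 to 6547 CPM (median 6365) and 5766 to 8624 CPM (median 6486), a much wider range in KO Tg-SwDI mice. Of 8 markers of striatum 3 and of 9 oligodendrocyte markers 4 were called higher in KO Tg-SwDI mice. The part of dissection in the channel results was not tested, and choroid plexus content above 0 in score cannot be told apart from the transgene in 4 of the 5 KO Tg-SwDI libraries.

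In the WT mice, a comparison that shares no library with the KO comparison, the same 21 genes had a median log2 fold change of -0.07. Of the 21, 18 were below 0, and Kcnh3 alone was called. Over all 78 genes the WT median was -0.06, with 54 below 0, so the median of the 21 was close to that of the whole set. The largest falls there after Kcnh3 were those of Kcnk12 (-0.25, adjusted p = 0.05, edgeR) and Kcnf1 (-0.22, adjusted p = 0.354). The interaction, the difference between the 2 transgene effects, was called for none of the 78 genes, against 0.608% of all genes. At an unadjusted p under 0.05 there were 16 of 78, against 2821 of all 16107 genes tested (edgeR). DESeq2 also called 0, and edgeR called 1 when KO Tg-SwDI replicate 2 was left out. The lowest p-values were those of Kcnd2 (-0.23 ± 0.073, adjusted p = 0.114), Kcns2 (-0.31, adjusted p = 0.133) and Kcnq3 (-0.26, adjusted p = 0.159). A larger effect of the transgene in KO than in WT mice was therefore not shown for any channel gene.

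**Figure D5:**
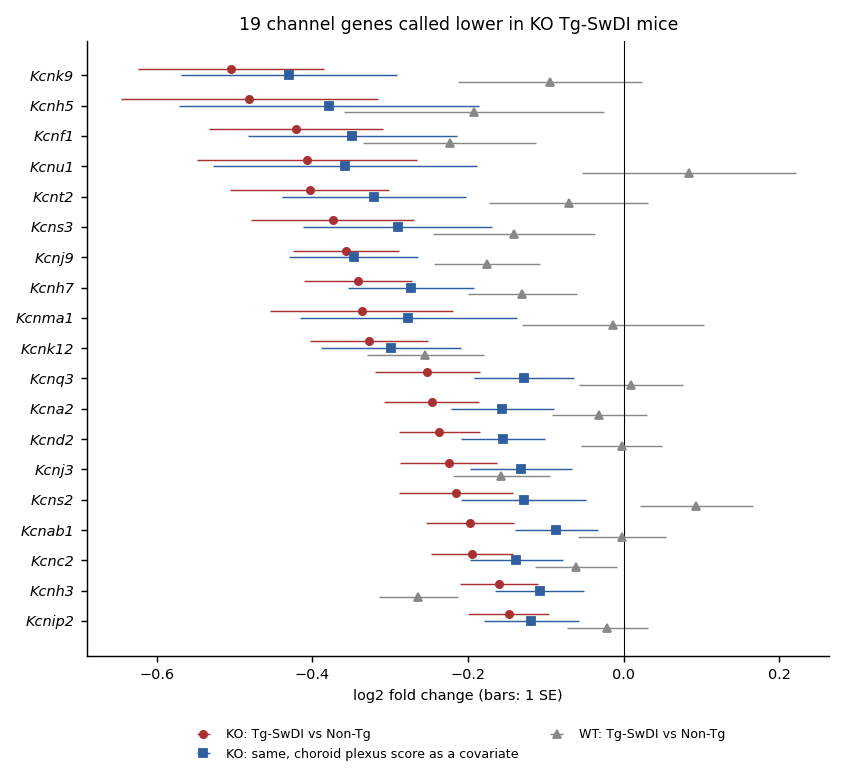
Log2 fold changes with 1 SE for 19 of the 21 channel genes called lower in KO Tg-SwDI mice: the transgene effect in KO mice (circles), the same with the choroid plexus score as a covariate (squares), and the transgene effect in WT mice (triangles). The genes were picked by the circles, which therefore lie below 0, from -0.50 for Kcnk9 to -0.15 for Kcnip2. All squares and 16 of the 19 triangles lie below 0 too, and in WT mice so did 54 of all 78 genes tested.

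Other genes of K+ handling were called in both directions in KO mice. Their values come from the fit without the choroid plexus covariate, and the KO groups differed in choroid plexus. With that covariate the calls over all genes went from 12.5% to 6.61% higher and from 8.31% to 0.975% lower. The part of dissection in these genes was not tested. Of 35 tested genes that do not start with Kcn, 5 were called higher and 8 lower in KO Tg-SwDI than in KO Non-Tg mice, against 12.5% and 8.31% of all genes tested, and 1 higher and 1 lower in the WT comparison, against 3.94% and 0.466%. Of 12 clustering and anchoring genes, Sptbn4, Dlg1, Cntnap2 and Adam22, which hold Kv1 and Kcnq channels at the axon initial segment and juxtaparanode, had log2 fold changes of -0.29, -0.23, -0.24 and -0.22 (adjusted p = 0.000682, 0.00631, 0.0283 and 0.0103, edgeR). Of 8 auxiliary proteins outside the Kcn genes, Amigo1, the Kv2 partner, fell by 0.16 and Abcc8, the neuronal KATP subunit, fell by 0.22, while Abcc9, the vascular KATP subunit, was higher by 0.36 in WT and 0.23 in KO mice. Hcn3, a hyperpolarization-activated channel, fell by 0.29 in WT mice, while between the Tg-SwDI groups Hcn3 was higher in KO by 0.36 (adjusted p = 0.0166). Of 10 pumps and cotransporters, Atp1b2, Atp1b3, Slc12a2 and Slc12a7 rose (log2 0.58, 0.37, 0.47 and 0.47) and Slc12a5, the neuronal K-Cl cotransporter, fell by 0.26. Slc12a2 is also a gene of the choroid plexus epithelium, whose markers moved the same way. Tmem175, the lysosomal K+ channel, had log2 fold changes of -0.08 in WT and 0.02 in KO mice, with no call.

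Loss of miR-34a was compared directly in each transgene background. In Tg-SwDI mice 2 of 78 genes were called higher in KO than in WT mice, 2.56% against 1.48% of all genes, and 0 lower, against 0.503%. The median log2 fold change was -0.0062 over the 78 genes and 0.0026 over all genes. An unadjusted p under 0.05 was found for 16 of the 78, against 3052 of all 16107 genes tested (edgeR). With library size alone, or with the trend on GC content and length removed, the split was 0 higher and 1 lower, which was Kcnip2 in both.

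The 2 genes were Kcna5 and Kcnh3. Kcna5 encodes the Kv1.5 delayed rectifier, known from cardiac and vascular muscle and from microglia. It was 1.31, 2.70, 1.62, 1.98 and 1.67 CPM in WT Tg-SwDI and 3.27, 2.92, 2.42, 3.23 and 2.86 CPM in KO Tg-SwDI mice, with 1 WT mouse, replicate 4, inside the KO range. In Non-Tg mice it was 2.03, 2.48, 2.11, 2.25 and 1.96 CPM in WT and 2.25, 2.80, 2.36, 2.54 and 2.47 CPM in KO. The log2 fold change in Tg-SwDI mice was 0.66 ± 0.16 SE (adjusted p = 0.0289, edgeR). The call was lost without WT Tg-SwDI replicate 3, 5 or 7 or KO Tg-SwDI replicate 5, where the adjusted p reached 0.0883. Kcnh3, described above, was 81.4 ± 2.97 CPM in WT Tg-SwDI and 94 ± 4.91 CPM in KO Tg-SwDI mice (mean ± SD, n = 5), and the groups overlapped in 1 KO mouse, replicate 8. Its log2 fold change was 0.21 ± 0.050 SE (adjusted p = 0.0342, edgeR). That call was lost without WT Tg-SwDI replicate 4, 5, 6 or 7 or KO Tg-SwDI replicate 3 or 5, where the adjusted p reached 0.0849, and with the groups compared alone neither gene was called. With the choroid plexus covariate both were called (adjusted p = 0.025 for Kcna5 and 0.0234 for Kcnh3), and among the libraries above 0 or those under 0 in the score neither was.

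Kcnj10, Kcnk6 and Kcne1l just missed the threshold in this comparison, all higher in KO Tg-SwDI mice (log2 0.25, 0.42 and 0.74, adjusted p = 0.0558, 0.0577 and 0.0596, edgeR). Kcnip2 missed it in the other direction, lower in KO Tg-SwDI mice (log2 -0.18, adjusted p = 0.0592). With the choroid plexus covariate Kcnj10 had an adjusted p of 0.0467 and Kcnk6 one of 0.0471 (edgeR). In that fit 1 auxiliary gene was also called higher and 1 lower. The microglial markers were higher as well, with 4 of 13 homeostatic and 6 of 10 activated markers called, and their part in the Kcnk6 value was not tested.

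In Non-Tg mice none of the 78 genes was called between KO and WT, as for all genes (0.0%). DESeq2 also called 0, and 11 of the 78 had an unadjusted p under 0.05 in edgeR. The median log2 fold change was 0.03, and -0.0021 over all genes. The lowest p-values belonged to Kcnq3 (0.19 ± 0.067, adjusted p = 0.517), Kcnd3 (0.14 ± 0.051, adjusted p = 0.528) and Kcng4 (-0.27 ± 0.11, adjusted p = 0.554). Kcnd3 (Kv4.3), an A-type channel of interneurons and other cells, was 114, 116, 106, 117 and 117 CPM in WT Non-Tg and 128, 122, 134, 124 and 122 CPM in KO Non-Tg mice, without overlap. Choroid plexus content differed between these groups too, with 3 of 5 WT and 0 of 5 KO libraries above 0 in score, so it cannot be told apart from genotype in the 3. With its score as a covariate Kcnq3 went to 0.10 and Kcnd3 to 0.09, and the median over the 78 genes to -0.0020. The number with an unadjusted p under 0.05 went from 11 to 2, and over all genes from 1302 to 561 (edgeR).

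The mature miR-34a that the KO mice lack lies at chr4:150068473-150068494 on the + strand (GRCm38), and its seed, bases 2 to 8 in capitals, is what target mRNAs pair with (sequence from RefSeq).
mmu-miR-34a-5p: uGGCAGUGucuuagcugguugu
The complement of the seed, CACTGCC, was searched on the mRNA strand in the 3'UTR of 1 GENCODE M21 transcript per gene. It was found in 19 of the 79 channel genes (24.1%) and in 17.3% of 14759 tested coding genes with a 3'UTR, whose 3'UTRs had median lengths of 1795 and 1196 bases. Of the 27 channel genes called in any comparison 6 had a match, and the 6 sites of 4 of them follow, each with the seed match in capitals and flanks in lower case, 5' to 3' on the mRNA strand with mm10 coordinates of the match.
Kcna2 (chr3:107111213-107111219, + strand): ctgaacccctctccCACTGCCttgccttt
Kcna2 (chr3:107114740-107114746, + strand): ttcagccccaccaaCACTGCCccacccag
Kcne1l (chrX:142305166-142305172, - strand): atggggttagccatCACTGCCaggcccgc
Kcng4 (chr8:119625438-119625444, - strand): tgccagtcactgggCACTGCCcatcttgc
Kcnma1 (chr14:23297894-23297900, - strand): tggtggggagaatcCACTGCCagaatctt
Kcnma1 (chr14:23294408-23294414, - strand): aagcatggctagaaCACTGCCctccaata
Kcne1l and 1 of the 2 sites in Kcnma1 have an A after the match, the strongest canonical type (an 8mer), and a match describes letters in this transcript, not binding. The 2 genes called between KO and WT Tg-SwDI mice, Kcna5 and Kcnh3, had no match in the transcript searched. In Tg-SwDI mice the 19 genes with a match had a median log2 fold change of -0.02 for KO against WT, with 7 above 0, and the 59 tested genes without one had -0.0054, with 29 above 0. In Non-Tg mice the medians were 0.02 and 0.04, with 13 of 19 and 33 of 59 above 0. No gene with a match was called in either comparison. Kcne1l had the highest value of the 19 in Tg-SwDI mice, 0.74, and 0.02 in Non-Tg mice.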

How the data were processed

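RNA from the left hippocampus of 20 mice, 5 in each of 4 groups, was sequenced by the authors from stranded mRNA libraries on DNBSEQ. Per the methods and the submitters' processing notes, reads were aligned to mm10 with STAR and counted on ENSEMBL genes with featureCounts, and the deposited table holds raw counts per gene, without normalization. Versions, the strand setting and the handling of reads that match several genes are not given in the sources used here. Groups were taken from the genotype labels, and the mice are separate animals.

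The potassium channel genes were found by symbol and biotype in GENCODE M21, to which 38872 of 39056 gene IDs matched without version numbers. The rule, the families and the lists of markers and related genes were chosen with earlier results of these data known. The named genes were every member called in any comparison, the 3 lowest p-values where none was called, 5 microglial and 2 astrocyte channel genes, the highest gene per length in each family, and Kcnj8, Kcnj13 and Kcne2, some of which are not reported here by name, though counts include them. Other genes, such as those of the related lists, and Kcne1l between the Tg-SwDI groups, were named after their values were seen.

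Counts were tested with edgeR 4.0.16 (limma 3.58.1) in R 4.3.3. The filter on low counts was filterByExpr with the groups given (at least 10 counts, and 15 in total), scaling used TMM, and 1 robust quasi-likelihood model of the 4 group means was fitted to all 20 libraries, with 16 residual degrees of freedom. Benjamini-Hochberg adjustment ran over all 16107 genes, and a gene was called at an FDR under 0.05. SE is the log2 fold change divided by the square root of its F statistic. The fit was tested on simulated counts. CPM use TMM-scaled library sizes, and RPKM divide them by the merged exonic length. Totals of 19549622 to 21066868 counts per library set the precision, which is lowest for rare transcripts.

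Alternatives were DESeq2 1.42.0, exactTest, no filter (28691 genes), a filter at a mean of 1 CPM (14407 genes), scaling by RLE or by library size, a fit of only the 2 groups compared, the replicate number as a block, the choroid plexus score (prior count 2) as a covariate, a spline trend on GC content and length (5 degrees of freedom) removed, and each mouse left out. Fits within the 11 libraries above and the 9 under 0 in choroid plexus score were chosen after seeing the data. Tables were made with Python 3.11.15.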

Additional observations from a re-analysis of the deposited data

Results flagged for a closer look

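In 148 sets of 5 mice (37 named genes in 4 groups), 11 had 1 mouse far from the other 4, with a gap above 0.71 of the group's range; chance flags about 1 set in 20. KO Non-Tg replicate 2 was the low one in Kcnd2 (149 CPM, the others 159 to 161), Kcna3 (5.5, the others 6.80 to 7.27) and Kcnh7 (58.1, the others 65.0 to 67.2), and of the 5 KO Non-Tg libraries it had the highest choroid plexus sum, 723.7 CPM. KO Non-Tg replicate 8 was high in Kcnh5 (5.51 CPM, the others 3.84 to 4.26). KO Tg-SwDI replicate 5 was high in Kcnf1 (81.0 CPM, the others 51.7 to 56.5), and KO Tg-SwDI replicate 8 in Kcnn2 (76.6 CPM, the others 62.1 to 65.2). WT Tg-SwDI replicate 4 was low in Kcnh7 (46.1 CPM, the others 53.8 to 56.1) and high in Kcnu1 (3.03 CPM, the others 2.68 to 2.75). Among WT Non-Tg mice, replicate 4 was low in Kcnd3 (106 CPM, the others 114 to 117), replicate 6 high in Kcnip2 (165 CPM, the others 159 to 161) and replicate 3 high in Kcnt2 (34.8 CPM, the others 29.0 to 30.5).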

How the results depend on the processing

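For the transgene in WT mice, 3 channel genes were called, and 6 by DESeq2, 5 by exactTest, 5 with RLE factors, 6 with the compared groups alone, 6 after removal of the trend on GC content and length, 6 among libraries under 0 in choroid plexus score, and 3 to 8 with 1 mouse left out (8 without WT Non-Tg replicate 7). For the transgene in KO mice, 26 were called, 9 with the choroid plexus covariate, 9 among libraries under 0 in its score, and 21 to 31 with 1 mouse left out. For KO against WT in Tg-SwDI mice, 2 were called, 6 by DESeq2, 6 by exactTest, 4 with a mean CPM of at least 1, 1 with library size alone, 0 with the compared groups alone, 6 with the choroid plexus covariate, 1 after removal of the trend on GC content and length, 0 among libraries above and 0 among those under 0 in choroid plexus score, and 0 to 7 with 1 mouse left out (0 without WT Tg-SwDI replicate 5 or 7, 7 without KO Tg-SwDI replicate 2). For KO against WT in Non-Tg mice the count was 0 in each alternative, and for the interaction 0, with 0 to 1 when 1 mouse was left out.

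With the replicate block the counts were 4, 21, 0, 0 and 0 in the order above. Deviations from the group means correlated by -0.0394 in the median over 16 pairs of libraries with the same number (-0.404 to 0.154, 2 above 0.1), against 0.0128 over 134 other pairs, so the replicate numbers were not taken to pair the mice.

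Signs of some named genes turned. In libraries under 0 in choroid plexus score these were Kcns2 (0.019, transgene in KO), Kcnj16 (0.0041, transgene in WT, and -0.24, KO against WT in Tg-SwDI), Kcnk13 (0.20) and Kcna3 (0.047), both KO against WT in Tg-SwDI. With the replicate block Kcnk13 (0.026) and Kcna3 (0.027) turned in that comparison, with library size alone Kcnj16 (-0.0038), and after removal of the trend on GC content and length Kcnk13 for the transgene in KO (-0.058). Leaving out 1 mouse turned Kcna3 to between -0.073 and -0.0067 for the transgene in WT and to between 0.0020 and 0.068 for KO against WT in Tg-SwDI, where the lowest value with 1 mouse left out was -0.078. All 124 group means were within 1 SD of their value with RLE factors and with library size alone.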
